A study of Bos taurus with 18 samples.

Results

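Cultures of bovine dermal fibroblasts taken from heifers at 5 months of age were compared between 8 h and 2 h of exposure to lipopolysaccharide (LPS), the outer membrane component of Gram-negative bacteria, to see which early changes had returned and which genes rose late. The comparison rests on 6 of the 18 RNA-Seq libraries of the series, 3 at 2 h and 3 at 8 h, and each library at 8 h was paired with the library of the same animal at 2 h. The 3 libraries of the same cultures at 0 h gave the starting level, and the 16-month cultures of the same 3 animals, at the same hours, served only for the comparisons at the end. All cultures were untransformed primary cells of Holstein heifers, grown from frozen aliquots of the fifth passage, seeded in duplicate wells in medium with fetal bovine serum and given LPS of Escherichia coli at 100 ng/ml. The animals had been chosen as mid-level responders by their earlier IL-8 production. None of the 18 libraries came from a culture kept without LPS for 2 h or 8 h, so the effects of LPS and of time or handling cannot be told apart.

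LPS is bound by toll-like receptor 4 (TLR4), which signals to the transcription factor NF-κB and to the MAP kinases. The first genes to respond are immediate early transcription factors and cytokines, together with the inhibitors that shut the same pathways down, and the signal also reaches the interferon response through a separate adaptor, so that antiviral genes tend to follow later. Dermal fibroblasts are structural cells of the skin that secrete collagen, and they take part in this response by releasing chemokines that draw in neutrophils and monocytes.

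The 6 libraries held 51495294 to 128698264 counts in gene windows, and 95.1% to 97.4% of their reads were matched to the genome. Levels are given in CPM, the gene-window counts of each library scaled to the same total, always in the order of animals 1, 2 and 3. Changes are given as log2 fold changes ± SE. The SE is the size of the change divided by the square root of its test's F statistic. It was not estimated apart from the test. It can be too small where few reads remain, as for ARC with 10 reads at 8 h. A gene was called when its adjusted p was under 0.05 in edgeR's quasi-likelihood test, with Benjamini-Hochberg adjustment over all tested genes, and its change was at least 2-fold (1 on the log2 scale). Positions are those of gene windows, introns included, on the UMD 3.1 cattle assembly. Of the 9 libraries of 5 months, 4 had a matched share of 95.1% to 95.5% and 5 had 96.7% to 97.4%. These 4 were animal 2 at 0 h, animal 3 at 2 h, and animals 1 and 3 at 8 h. COL1A1, which encodes a chain of type I collagen, was at 7610 to 10457 CPM in the 4 libraries and at 27002 to 38798 CPM in the other 5, and with the matched share as a further term only COL1A1 and the overlapping LOC100847582 were called for that term.

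Between 2 h and 8 h, 456 of 12875 tested genes were called, which is 3.54% of those tested. At 8 h 253 were higher (1.97%) and 203 were lower (1.58%), and each of the 456 moved the same way in 3 of 3 animals. So did 8115 of the 12419 genes that were not called. When 1 CPM was required in every library the balance turned, to 127 higher and 165 lower. Of the 253 higher genes 44 were under 1 CPM in all 2 h libraries and were tested only through their 8 h libraries, ISG15, PTX3, TLR2, VCAM1, ZNF461 and ZNF789 of those named here among them. Likewise 17 of the 203 lower genes were under 1 CPM in all 8 h libraries, among them ARC, EGR3, IL1A, KLF15, RRAD, TMEM88 and XIRP1. A gene admitted in this way could pass the filter only by differing between the times. With no minimum on the fold change, 6369 genes had an adjusted p under 0.05. In the same fit 334 genes (2.59%) were called at 2 h against 0 h and 198 (1.54%) at 8 h against 0 h, and these 3 contrasts share libraries. The genes closest to the 2-fold limit were KCNJ5, called at 1.001 ± 0.195, and LOC100174924, not called at 0.999 ± 0.116.

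Sorted by where they stood before, 134 of the 203 lower genes had risen at least 2-fold by 2 h. Of these early rises 107 were back within 2-fold of the 0 h level at 8 h, with a median log2 change of 1.67 at 2 h and 0.12 at 8 h, and 27 were kept in part, at least 2-fold above 0 h in the fit, 24 of them called against 0 h. The other 69 lower genes had changed by under 2-fold at 2 h and are called late falls. Among the 253 higher genes, 86 had been at least 2-fold below 0 h at 2 h, 82 of them with an adjusted p under 0.05, and had recovered to within 2-fold of 0 h, with medians of -1.26 at 2 h and 0.23 at 8 h. One gene, ZNF789, had fallen and stood 1.01 ± 0.39 above its 0 h level at 8 h, which was not called (adjusted p 0.073). Late rises, which had changed by under 2-fold at 2 h, numbered 158, and 8 genes rose at 2 h and rose again, which is called a continued rise. These were CFB, PTX3, ISG15, VCAM1, SERPINB2, IL8, TLR2 and CCL5. With 1 CPM required in every library 3 of the 8 could be tested, SERPINB2, IL8 and CCL5, and all 3 were called higher. The same filter kept the calls of 41 of the 86 recoveries, 83 of the 158 late rises, 88 of the 107 early rises that returned, 21 of the 27 kept in part and 51 of the 69 late falls. It left the others untested, apart from 3 late rises that were tested and not called.

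Of the 158 late rises, 52 were also called higher at 8 h against 0 h, with a median of 0.09 at 2 h and 1.41 at 8 h. For the other 106 the medians were -0.73 at 2 h, with 62 genes below 0 h at an adjusted p under 0.05, and 0.45 at 8 h. A gene that gained at least 2-fold from 2 h without standing 2-fold above 0 h must have been below 0 h at 2 h, so that this side is set by the definition. Of the 69 late falls, 27 were also called lower at 8 h against 0 h.

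**Figure D1:**
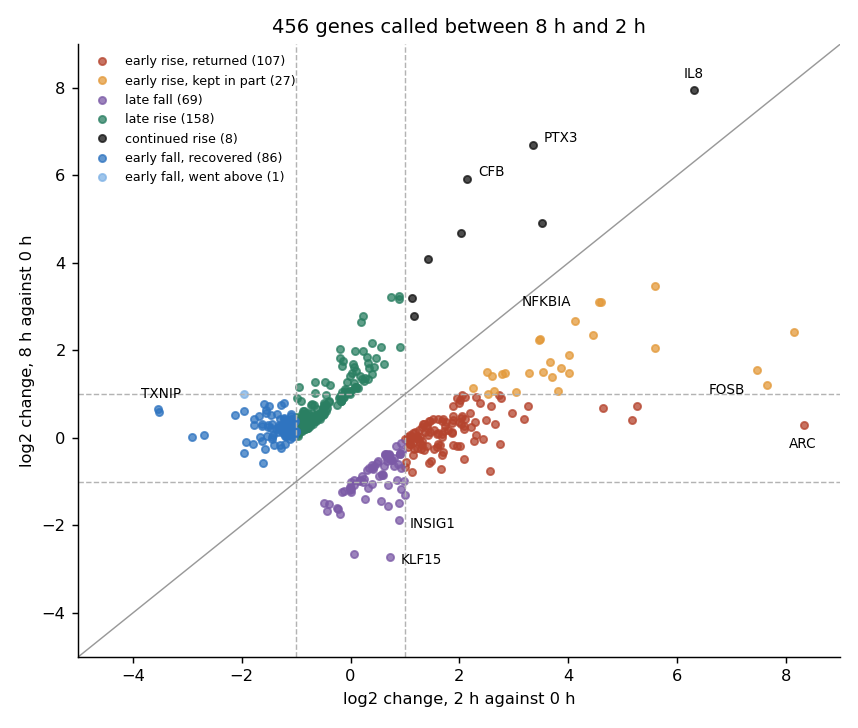
Log2 change at 2 h against 0 h (horizontal) and at 8 h against 0 h (vertical) of the 456 genes called between 8 h and 2 h, coloured by the shape of their course with the number of genes in brackets. Dashed lines mark 2-fold changes and the diagonal marks equal change, so genes below the diagonal were lower at 8 h than at 2 h; both axes share the 0 h libraries. The 107 returned early rises lie between the horizontal dashed lines on the right, and the 86 recovered early falls lie between them on the left.

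Immediate early genes, most of which encode transcription factors, supplied 4 of the 5 largest falls among tested genes. Of 28 tested genes on a list of these, 16 were called lower at 8 h and 1 higher, against 1.58% and 1.97% of all tested genes, with a median log2 change of -1.27 against -0.01 over all tested genes. When every library had to reach 1 CPM, 12 of 24 were called lower and 1 higher. FOSB, a partner of JUN in the AP-1 transcription factor (chromosome 18, 53501995 to 53508418), was at 0.246, 0.697 and 0.188 CPM at 0 h, 55.4, 81.7 and 80.7 CPM at 2 h and 0.908, 1.13 and 0.585 CPM at 8 h. Its libraries at 2 h and 8 h did not overlap, and it fell by 6.45 ± 0.24 (adjusted p 5.9e-06) with a log2 change of 1.2 left over 0 h. ARC, an immediate early gene best known from neurons (chromosome 14, 2892673 to 2894998), rose to 8.12, 6.89 and 11.7 CPM at 2 h and was at 0.0182, 0.0147 and 0.0706 CPM at 8 h, a fall by 8.02 ± 0.24 (adjusted p 2.43e-06) that ended near its 0.0130, 0.0235 and 0.0448 CPM at 0 h.

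NR4A1, a nuclear receptor induced within minutes by many stimuli (chromosome 5, 27977007 to 27992869), went from 4.36, 4.54 and 3.84 CPM at 0 h to 161, 90.0 and 200 CPM at 2 h and back to 7.01, 5.43 and 4.56 CPM at 8 h. EGR3, a zinc finger factor of the early growth response family, fell by 5.92 ± 0.18 (adjusted p 2.43e-06). JUNB, another AP-1 subunit, fell by 1.86 ± 0.11, from 170, 145 and 162 to 50.4, 41.6 and 46.1 CPM (adjusted p 3.35e-05). All libraries of these genes at 2 h lay above all of theirs at 8 h. Not every member followed them. FOS, the founding member of the AP-1 group, stood at 28.5, 39.7 and 37.8 CPM at 2 h and 24.6, 34.2 and 28.5 CPM at 8 h, a log2 change of -0.35 ± 0.12 that was not called (adjusted p 0.048), and MYC had a log2 change of 0.15 ± 0.064 (adjusted p 0.0825). KLF2, a Krüppel-like factor that restrains inflammatory genes, was the member called higher, from 4.08, 4.95 and 4.24 CPM to 16.7, 14.1 and 16.1 CPM, with a log2 change of 1.75 ± 0.10 (adjusted p 3.35e-05).

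The remaining genes among the 12 largest falls were also early rises, apart from KLF15 and INSIG1. RRAD, a small GTPase of muscle, was at 0 CPM in 1 library at 0 h and in 1 at 8 h and at 2.49, 2.20 and 1.51 CPM at 2 h, and fell by 5.74 ± 0.45 (adjusted p 8.68e-05). XIRP1, an actin-binding protein of muscle, fell by 4.54 ± 0.21 (adjusted p 1.24e-05) and TMEM88, an inhibitor of Wnt signalling, by 3.33 ± 0.26 (adjusted p 8.56e-05). HBEGF, a growth factor that activates the EGF receptor, went from 10.6, 11.8 and 9.02 CPM to 1.44, 2.33 and 0.978 CPM, against 1.32, 2.59 and 1.27 CPM at 0 h, and had returned.

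**Figure D2:**
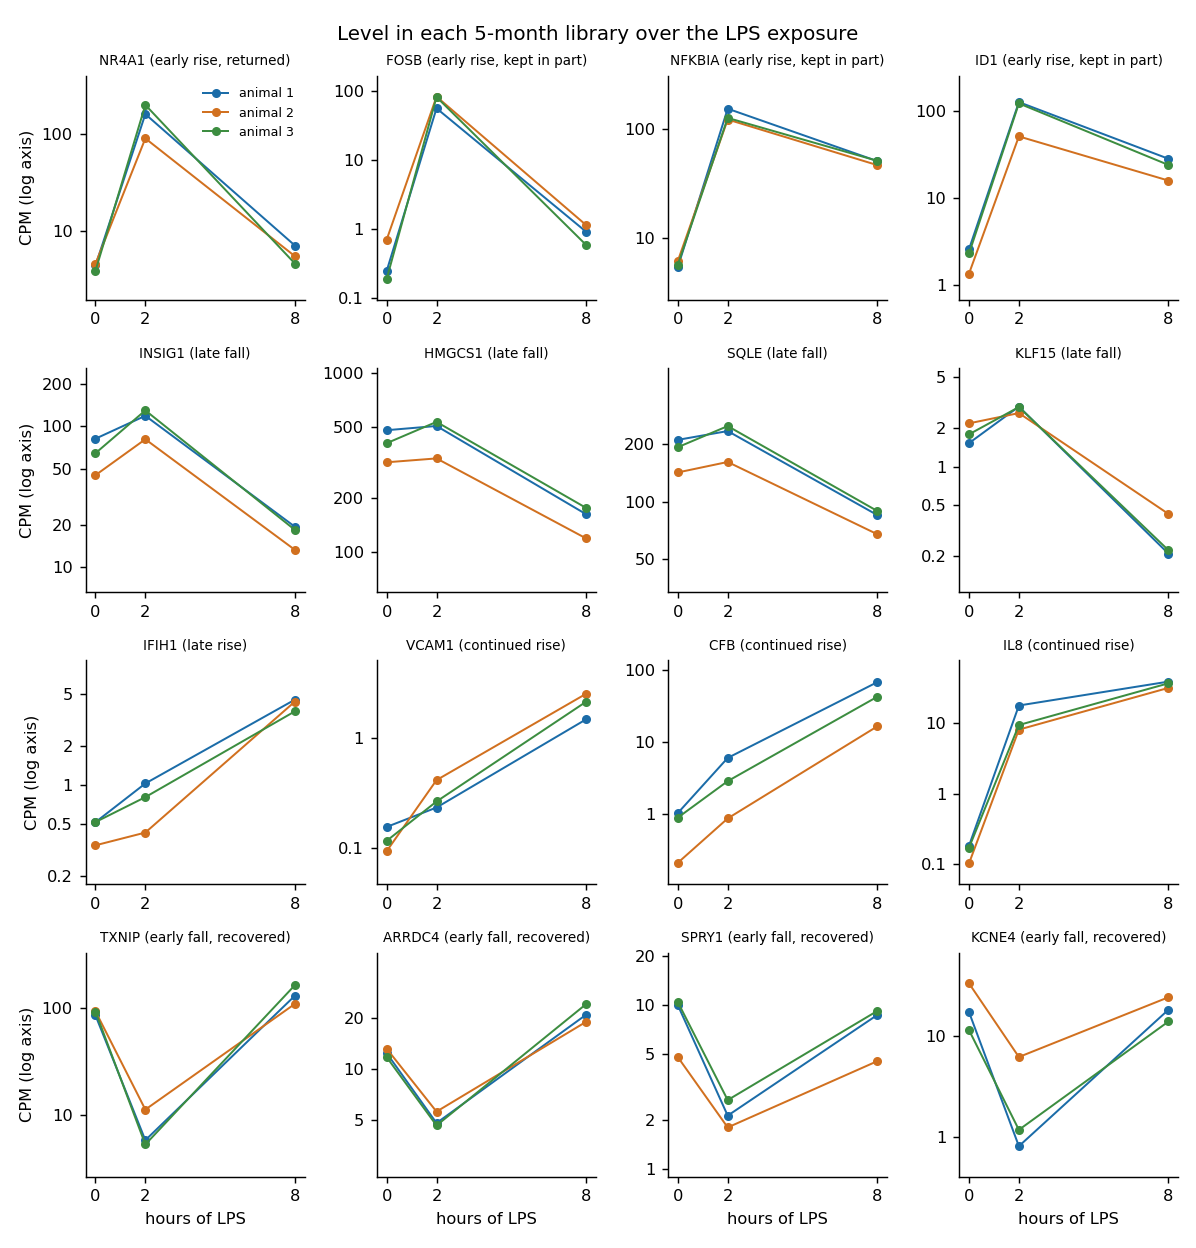
CPM (log axis) of 16 genes at 0, 2 and 8 h of LPS, with a line for each of the 3 animals at 5 months and the shape of the course in each title. NR4A1 was at 90.0 to 200 CPM at 2 h and 4.56 to 7.01 CPM at 8 h; CFB and IL8 rose at both steps, and TXNIP fell to 5.37 to 11.3 CPM at 2 h before it recovered.

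Feedback inhibitors of the MAP kinases fell in part. Of 12 tested genes on that list, 5 were called lower and 1 higher, against 1.58% and 1.97% of all tested genes, with a median of -0.62. The stricter filter of 1 CPM in every library left 11, with 4 called lower and 1 higher. DUSP5, a phosphatase that inactivates the kinase ERK in the nucleus, was at 12.9, 16.3 and 11.4 CPM at 2 h and 1.41, 1.27 and 0.232 CPM at 8 h and fell by 3.96 ± 0.48 (adjusted p 0.000489). DUSP6, which does the same in the cytoplasm, fell by 2.75 ± 0.17, from 39.4, 50.4 and 51.8 to 7.97, 7.88 and 6.35 CPM (adjusted p 3.69e-05), and was kept in part at 1.06 over 0 h. MAP3K8, a kinase that carries the TLR4 signal to ERK and stands on this list for its part in the same cascade, fell by 1.93 ± 0.15 (adjusted p 9.26e-05). SPRY1, an inhibitor of growth factor signalling, had the opposite course, with 9.98, 4.81 and 10.4 CPM at 0 h, 2.12, 1.79 and 2.63 CPM at 2 h and 8.70, 4.55 and 9.21 CPM at 8 h, and its log2 change from 2 h to 8 h was 1.65 ± 0.15 (adjusted p 0.000171). Its 2 h libraries were all below its 0 h and 8 h libraries, whereas SPRY2 was called lower at 8 h (-1.10 ± 0.20, adjusted p 0.00309).

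Among NF-κB subunits and inhibitors, 7 of 18 tested genes were called lower and 0 higher at 8 h, where all tested genes gave 1.58% and 1.97%, and the median was -0.28. Under a filter of 1 CPM in every library 6 of 17 were called lower. Of the 7, 4 were kept in part. NFKBIA, which encodes the inhibitor IκBα (chromosome 21, 46065546 to 46068942), was at 5.46, 6.21 and 5.73 CPM at 0 h, 154, 122 and 127 CPM at 2 h and 50.9, 46.8 and 51.3 CPM at 8 h. It fell by 1.5 ± 0.085 (adjusted p 2.61e-05) and was still 3.1 above 0 h on the log2 scale. TNFAIP3, the ubiquitin-editing inhibitor A20, fell by 1.47 ± 0.23 (adjusted p 0.00163) and stood at 3.1 over 0 h. NFKBIZ, a nuclear IκB protein needed for IL6 expression, fell by 2.13 ± 0.16, and ZC3H12A, a nuclease that degrades cytokine mRNA, by 2.01 ± 0.11 (adjusted p 6.77e-05 and 2.18e-05).

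BCL3, another nuclear IκB protein, went from 85.1, 66.0 and 79.6 CPM at 2 h to 24.4, 15.4 and 20.9 CPM at 8 h and was back within 2-fold of its 0 h level (-0.31 against 0 h). The 4 tested NF-κB subunits were not called between the times. RELA, the main activating subunit, had a log2 change of 0.09 ± 0.040, RELB one of -0.11 ± 0.15 and NFKB1 one of -0.14 ± 0.11 (adjusted p 0.107, 0.586 and 0.314); the window of NFKB1 overlaps LOC100335751. NFKB2, the fourth, was higher at 8 h by 0.56 ± 0.064, under the 2-fold limit (adjusted p 0.000376), without overlap between the times. SOCS3, an inhibitor of cytokine receptor signalling, was low at 2 h with a mean of 1.93 CPM and fell by 1.03 ± 0.33 (adjusted p 0.0342).

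Targets of BMP, TGF-β and Notch signalling, pathways that set fibroblast growth and differentiation, also came down. Of 14 tested genes 9 were called lower and 0 higher, compared with 1.58% and 1.97% over all tested genes, and the median was -1.14. At 2 h against 0 h 12 of the 14 had been called higher, as had 223 of all 12875 tested genes. ID1, an inhibitor of helix-loop-helix factors and a direct BMP target, was at 2.58, 1.35 and 2.3 CPM at 0 h, 125, 50.5 and 121 CPM at 2 h and 28.0, 15.7 and 23.8 CPM at 8 h. It fell by 2.14 ± 0.11 (adjusted p 1.93e-05), and its 8 h libraries still lay above those at 0 h. SNAI1, a repressor active in mesenchymal cells, fell by 2.41 ± 0.13 and had returned, while SMAD7, the inhibitory SMAD, fell by 2.29 ± 0.15 and was kept in part (adjusted p 2.32e-05 and 4.54e-05). Returned means within 2-fold of 0 h, and SNAI1 still stood 0.56 ± 0.14 above 0 h at 8 h (adjusted p 0.0142). HEY1, a Notch target, was at 4.84, 8.84 and 4.68 CPM at 2 h and 1.02, 4.70 and 1.12 CPM at 8 h, a fall by 1.79 ± 0.28 (adjusted p 0.00158). Animal 2 was higher than the others at both times, so that the ranges overlapped, and without pairing by animal the adjusted p was 0.208. ID3, a relative of ID1, was at 65.5, 55.8 and 73.3 CPM at 0 h, 145, 88.3 and 138 CPM at 2 h and 146, 122 and 145 CPM at 8 h, and its log2 change of 0.11 ± 0.095 from 2 h to 8 h was not called (adjusted p 0.37).

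Not all early rises came down. Of the 223 genes called higher at 2 h against 0 h, 134 were called lower at 8 h, 8 were called higher and 81 were called in neither direction, and 34 of these 81 were still at least 2-fold above 0 h. Chemokines and cytokines stood among the 34, namely CCL2, CXCL2 and IL6, which were named after their values were seen. CCL2, which attracts monocytes (chromosome 19, 16232956 to 16234822), was at 6.40, 2.36 and 6.28 CPM at 0 h, 167, 27.4 and 125 CPM at 2 h and 179, 58.9 and 194 CPM at 8 h, a log2 change of 0.52 ± 0.19 between 2 h and 8 h (adjusted p 0.0521). CXCL2, a neutrophil chemokine with close paralogs and a window that overlaps another gene, had a log2 change of 0.06 ± 0.21 (adjusted p 0.831). IL6, the cytokine that drives the acute phase response, was at 7.15, 4.06 and 3.33 CPM at 2 h and 10.9, 12.9 and 6.67 CPM at 8 h, and its change of 0.99 ± 0.40 was not called (adjusted p 0.0756).

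Over the list of cytokines and chemokines 11 of 24 genes passed the filter, 2 were called higher and 2 lower, against 1.97% and 1.58% of all tested genes, and the median was 0.10. At 1 CPM in every library 10 were left, of which 2 were called higher and 1 lower. IL8, the chief neutrophil chemokine (chromosome 6, 90559882 to 90563647), was at 0.181, 0.102 and 0.170 CPM at 0 h, 18, 8.17 and 9.50 CPM at 2 h and 39.5, 32.1 and 37.4 CPM at 8 h. Every 8 h library was above every 2 h library, and the change was 1.62 ± 0.17 (adjusted p 0.000271), on top of 6.32 at 2 h against 0 h. With limma-voom the adjusted p was 0.0654, and with all 18 libraries in one fit 0.134. CCL5, a chemokine for T cells and monocytes, rose from 12.7, 5.08 and 8.66 CPM to 28.8, 17.5 and 22.7 CPM, by 1.39 ± 0.26 (adjusted p 0.00383, 0.0757 without pairing by animal and 0.147 with all 18 libraries in one fit).

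LIF, a cytokine of the IL6 family, went the other way, from 30.7, 20.7 and 25.2 CPM to 1.92, 3.28 and 1.97 CPM, and fell by 3.54 ± 0.30 (adjusted p 0.000125). IL1A, a pro-inflammatory cytokine held within the cell until release, was at 3.22, 1.57 and 1.66 CPM and then 0.908, 0.427 and 0.343 CPM and was called lower by 2.03 ± 0.68 (adjusted p 0.0394), a call that was lost under 9 of the alternatives tried, among them leaving out animal 1 (0.0822) or animal 2 (0.0783). It was low throughout, and at 0 h its level was 0.0519, 0.0313 and 0.493 CPM. Its log2 change of 1.5 at 8 h against 0 h was not called (adjusted p 0.173), nor was that of RRAD, 2.41 (adjusted p 0.0932).

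Some of the best known genes of the response lay under the filter and are given as reads summed over 3 libraries, with ratios of pooled CPM and exact 95% intervals that cover counting error only. TNF, the cytokine at the head of the LPS cascade, had 10 reads at 0 h, 242 at 2 h and 6 at 8 h, which was 39.3-fold more at 2 h than at 8 h (17.8 to 108). Its levels were 1.44, 0.470 and 0.925 CPM at 2 h and 0.0272, 0.0147 and 0.0202 CPM at 8 h, without overlap, in a window that overlaps another gene. CCL20, a chemokine for dendritic cells and lymphocytes, had 0 reads at 0 h, 77 at 2 h and 94 at 8 h, and the ratio of 8 h to 2 h was 1.25 (0.917 to 1.72). It was lower at 8 h in animals 1 and 2 and higher in animal 3. IL11, a cytokine of the IL6 family, had 46, 510 and 114 reads. CXCL10, an interferon-induced chemokine, had 4, 15 and 75 reads, or 5.13-fold more at 8 h than at 2 h (2.92 to 9.62). HAS1, a hyaluronan synthase, had 27, 497 and 6 reads, or 80.7-fold more at 2 h than at 8 h (36.8 to 221). The windows of IL11 and CXCL10 also overlap other genes.

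On the list of LPS receptor and signalling genes 13 of 16 were tested, 1 was called higher and 1 lower, and the median was 0.00. The called rise depended on the filter, since TLR2 was under 1 CPM in all 2 h libraries and was tested only through its 8 h libraries. With 1 CPM required in every library 12 were tested, 0 called higher and 1 lower, against 127 higher and 165 lower of 12058 genes tested under that filter. The fit described here called 1.97% of all tested genes higher and 1.58% lower. TLR2, the receptor for bacterial lipoproteins, rose from 0.369, 0.441 and 0.746 CPM to 1.62, 1.96 and 1.49 CPM, by 1.62 ± 0.28 (adjusted p 0.00237). TICAM1, the adaptor that leads from TLR4 to the interferon response, was at 21.5, 15.9 and 18.2 CPM at 2 h and 10.2, 8.48 and 9.14 CPM at 8 h and fell by 1.06 ± 0.074 (adjusted p 5.47e-05), close to its 0 h level; with scaling by library size alone its log2 change was -0.99, just under the limit. TLR4 had 397, 265 and 300 reads at 0, 2 and 8 h, a ratio of 1.16 for 8 h to 2 h (0.981 to 1.38), with animal 2 lower at 8 h and the others higher. CD14, the co-receptor, had 57, 45 and 109 reads, a ratio of 2.49 (1.74 to 3.60).

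Interferon-stimulated genes leaned higher at 8 h, most of them by under 2-fold. Of 34 tested genes 6 were called higher and 0 lower at 8 h against 2 h (1.97% and 1.58% of all tested genes), and 30 of 34 lay above 0 compared with 48.7% of all tested genes, with a median for the list of 0.37. An adjusted p under 0.05 was reached by 24 of the 34 in the higher direction (70.6%) and by IRF7 in the lower (2.94%). Over all tested genes the shares were 25.4% and 24.0%. At 2 h against 0 h the list's median had been -0.02. IFIH1, the cytoplasmic sensor MDA5 for viral RNA (chromosome 2, 34216858 to 34272535), was at 0.519, 0.344 and 0.520 CPM at 0 h, 1.03, 0.432 and 0.808 CPM at 2 h and 4.54, 4.39 and 3.69 CPM at 8 h, a rise of 2.48 ± 0.25 (adjusted p 0.000249). ISG15, a ubiquitin-like antiviral protein (chromosome 16, 52714627 to 52715654), rose from 0.544, 0.307 and 0.171 CPM to 2.50, 2.47 and 1.38 CPM, by 2.67 ± 0.28 (adjusted p 0.00029, and 0.0809 with all 18 libraries in one fit). The libraries of the 2 times did not overlap for either gene.

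OAS1, which makes the second messenger that activates RNase L, rose by 2.28 ± 0.35 (adjusted p 0.00139), in a window that overlaps OAS2 and with near-identical copies in the cattle genome. BST2, which tethers budding virions, rose by 1.2 ± 0.14 and MX1, a dynamin-like antiviral GTPase, by 1.03 ± 0.14 (adjusted p 0.00047 and 0.000901). DTX3L, a ubiquitin ligase whose window overlaps PARP9, completed the 6 at 1.06 ± 0.062 (adjusted p 3.15e-05). Of the 11 members under the filter, ZBP1 had 56 reads at 2 h and 362 at 8 h, and OAS2 had 64 and then 254. GBP5 was lower in the pooled reads, with an interval below 1. It was lower at 8 h only in animal 2, which held most of its reads, and was higher in animals 1 and 3. With a filter of 10 reads in 3 of the 6 libraries 12 of 43 were called higher, and with 1 CPM required in every library 3 of 29. Those 3 were BST2, MX1 and DTX3L. ISG15, IFIH1 and OAS1 were then untested, being under 1 CPM in 3, 2 and 1 of the 2 h libraries.

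Acute phase and complement genes held the largest rise among tested genes that had not fallen at 2 h. On this list 2 of 9 tested genes, CFB and PTX3, were called higher and 0 lower, against 1.97% and 1.58% of all tested genes, with a median of 0.40. Both passed the filter with the help of their 8 h libraries, as PTX3 was under 1 CPM in every 2 h library and CFB in animal 2 at 2 h. With 1 CPM required in every library 7 genes were tested, 0 were called, and the median was 0.07, so the count says nothing of the list. CFB, complement factor B of the alternative pathway (chromosome 23, 27225266 to 27231292), was at 1.04, 0.211 and 0.896 CPM at 0 h, 6.04, 0.873 and 2.87 CPM at 2 h and 68.1, 16.6 and 42.7 CPM at 8 h. The animals kept their order at every time, with animal 2 lowest, and CFB rose by 3.76 ± 0.17 (adjusted p 9.48e-06) after 2.14 at 2 h against 0 h. PTX3, a soluble pattern recognition protein whose window lies in that of VEPH1, rose from 0.272, 0.0863 and 0.186 CPM to 1.70, 1.19 and 2.51 CPM, by 3.33 ± 0.34 (adjusted p 0.000248). SAA3, a serum amyloid A protein, had 0 reads at 0 h, 1 at 2 h and 270 at 8 h, which pooled to a ratio of 277 with an interval from 49.3 to 11000. C2, the counterpart of CFB in the classical pathway, had 112 reads at 2 h and 430 at 8 h, a pooled ratio of 3.94 (3.19 to 4.89). Its animals differed, with 0.214, 0.240 and 0.591 CPM at 2 h and 2.31, 0.103 and 1.70 CPM at 8 h, so that animal 2 was lower at 8 h and the interval, which covers counting error only, does not hold that spread. C3, the central complement protein, had a log2 change of 0.08 ± 0.069 (adjusted p 0.357).

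Among the other named rises, VCAM1, an adhesion molecule for leukocytes (chromosome 3, 42703661 to 42766060), was at 0.233, 0.412 and 0.264 CPM at 2 h and 1.46, 2.49 and 2.11 CPM at 8 h, a rise of 2.66 ± 0.27 (adjusted p 0.000242) in a gene tested only through its 8 h libraries. OCLN, the tight junction protein occludin, rose from 0.291, 1.40 and 0.350 CPM to 2.49, 4.06 and 2.57 CPM, by 2.44 ± 0.43 (adjusted p 0.00269), with animal 2 highest at every time; the adjusted p was 0.138 without pairing and 0.0515 without animal 3.

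Several other genes were named after their values were seen. CXCL6, a neutrophil chemokine, was at 53.0, 27.9 and 67.4 CPM at 0 h, 109, 50.8 and 97.0 CPM at 2 h and 446, 347 and 528 CPM at 8 h, a rise of 2.35 ± 0.17 (adjusted p 6.58e-05). PLA2G4A, the phospholipase that frees arachidonic acid from membranes, rose from 19.5, 7.86 and 15.4 CPM to 58.4, 26.4 and 55.6 CPM, by 1.66 ± 0.068 (adjusted p 8.13e-06), and PTGS1, the cyclooxygenase COX-1 that turns it into prostaglandin precursors, from 14.1, 3.1 and 9.44 CPM to 64.0, 8.26 and 35.5 CPM, by 1.80 ± 0.11 (adjusted p 3.66e-05). In PTGS1 animal 2 was lowest at both times and stayed below the 2 h levels of the other animals, so that the ranges overlapped although each animal was higher at 8 h. PTGS2, the inducible cyclooxygenase COX-2, took the reverse course, with 5.02, 3.25 and 4.08 CPM at 0 h, 73.3, 20.4 and 47.4 CPM at 2 h and 23.3, 13.7 and 21.5 CPM at 8 h, a fall by 1.23 ± 0.20 (adjusted p 0.00185) that left it 2.23 above 0 h, in a window that overlaps LOC100138376. Its ranges at 2 h and 8 h overlapped through animal 2, and each animal was lower at 8 h.

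Both of the largest rises from 2 h to 8 h among tested genes were recoveries from an early drop. TXNIP, an inhibitor of thioredoxin and of glucose uptake (chromosome 3, 21489097 to 21493258), was at 85.6, 93.4 and 92.7 CPM at 0 h, 5.88, 11.3 and 5.37 CPM at 2 h and 131, 110 and 164 CPM at 8 h. All 2 h libraries lay far below the others, and the rise was 4.12 ± 0.29 (adjusted p 5.96e-05), to 0.59 against 0 h. LOC100848155, an unnamed gene on the opposite strand whose window contains that of TXNIP, followed it with 4.19 ± 0.29 (adjusted p 5.69e-05), and reads of the pair cannot be told apart if the counting did not use strand, which is not given in the sources used here. ARRDC4, an arrestin relative of TXNIP that also lowers glucose uptake, went from 4.82, 5.62 and 4.66 CPM to 20.8, 18.9 and 24.0 CPM, by 2.01 ± 0.11 (adjusted p 2.16e-05, and 0.0965 with all 18 libraries in one fit).

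KCNE4 and KCNJ2, a regulatory and a pore-forming subunit of potassium channels, recovered by 2.93 ± 0.36 and 2.77 ± 0.39 (adjusted p 0.000553 and 0.00096). ZNF461, a zinc finger gene, was higher at 8 h than at 2 h by 2.56 ± 0.27, and ZNF789, another, by 2.97 ± 0.46 (adjusted p 0.000286 and 0.00143). ZNF461 was at 0.291, 0.317 and 0.256 CPM at 2 h and 1.54, 1.80 and 1.94 CPM at 8 h and ZNF789 at 0.252, 0.518 and 0.124 and 2.20, 1.97 and 2.74 CPM, so both passed the filter only through 8 h. KCNE4 was at 17.0, 32.6 and 11.3 CPM at 0 h, 0.816, 6.15 and 1.18 CPM at 2 h and 18, 23.8 and 13.7 CPM at 8 h, with animal 2 highest throughout. CHAC1, which degrades glutathione, went from 3.79, 9.75 and 4.89 CPM at 2 h to 40.3, 39.9 and 39.9 CPM at 8 h, a rise of 2.66 ± 0.23 (adjusted p 0.000135). The list of growth-restraint genes, which holds TXNIP and ARRDC4, had 2 of 14 tested genes called higher and 2 lower, against 1.97% and 1.58% of all tested genes, with a median of 0.06. With 1 CPM required in every library 12 were tested, 2 called higher and 0 lower, so that neither called fall was among them. Its called falls were SESN3, a sestrin that restrains the growth regulator mTORC1 (-1.14 ± 0.11, adjusted p 0.000171, 0.266 without pairing and 0.0751 with all 18 libraries in one fit), and KLF15. KLF15, a Krüppel-like factor induced by glucocorticoids, was at 1.53, 2.18 and 1.79 CPM at 0 h, 2.95, 2.63 and 2.93 CPM at 2 h and 0.209, 0.427 and 0.222 CPM at 8 h, and its fall by 3.44 ± 0.25 (adjusted p 6.28e-05) took it 2.71 below 0 h on the log2 scale.

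Genes of cholesterol and fatty acid synthesis held 9 of the 69 late falls, more than any other list. These genes are switched on by the transcription factor SREBP when cells lack sterols, and INSIG1, itself a target, holds SREBP back. Of 21 tested genes 9 were called lower and 0 higher at 8 h against 2 h (1.58% and 1.97% of all tested genes). All 21 had a negative change with an adjusted p under 0.05, compared with 24.0% of all tested genes, and the median was -0.98. The changes ran from -2.77 to -0.34, and all 21 were lower at 8 h than at 2 h in 3 of 3 animals by CPM, as were 2980 of the 12875 tested genes. At 2 h against 0 h, 0 of the 21 had been called, with changes from -0.31 to 0.88, and at 8 h against 0 h 6 were called lower, with a median of -0.70 and changes from -1.88 to -0.43. Over all 12875 tested genes 2.59% were called at 2 h against 0 h, and 44 were called lower at 8 h against 0 h.

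INSIG1 (chromosome 4, 117906798 to 117920023) was at 81.7, 44.9 and 64.4 CPM at 0 h, 119, 81.0 and 130 CPM at 2 h and 19.3, 13.2 and 18.3 CPM at 8 h. Its libraries at 8 h lay below every 0 h and 2 h value, and it fell by 2.77 ± 0.095 (adjusted p 3.78e-06). HMGCS1, an early enzyme of the mevalonate pathway (chromosome 20, 31451294 to 31477033), was at 478, 316 and 405 CPM at 0 h, 505, 332 and 533 CPM at 2 h and 162, 118 and 176 CPM at 8 h, and fell by 1.65 ± 0.069 (adjusted p 8.13e-06). SQLE, the squalene epoxidase, was at 85.1, 67.6 and 89.3 CPM at 8 h, after a fall by 1.46 ± 0.066 (adjusted p 1.13e-05). SREBF1, which encodes an SREBP, fell by 1.07 ± 0.074 (adjusted p 5.06e-05).

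SREBF2, the SREBP that mainly drives cholesterol genes, had a log2 change of -0.79 ± 0.071, under the 2-fold limit (adjusted p 0.00015). The windows of both SREBP genes contain a microRNA gene. ABCA1, which exports cholesterol and is not on the list, also fell, from 5.36, 3.75 and 5.84 CPM to 2.82, 0.442 and 2.60 CPM, by 1.56 ± 0.34 (adjusted p 0.00676). It was named after its values were seen.

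**Figure D3:**
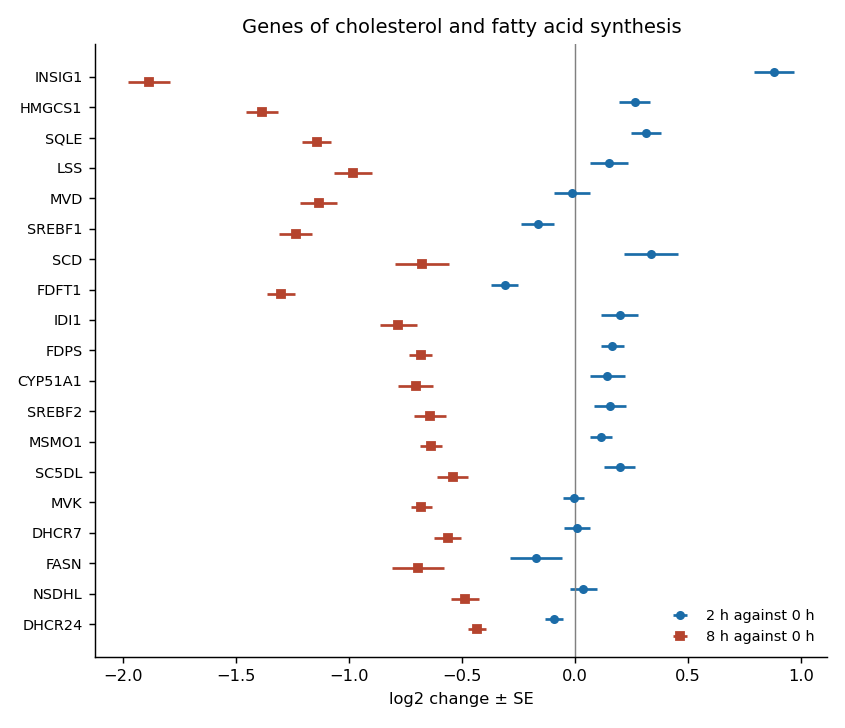
Log2 change ± SE (horizontal) of 19 of the 21 tested genes of cholesterol and fatty acid synthesis at 2 h against 0 h (circles) and at 8 h against 0 h (squares), both from the fit of the 9 libraries of 5 months and sharing the 0 h libraries. At 2 h the changes ran from -0.31 to 0.88, and at 8 h all 19 drawn were below 0, from -1.88 to -0.43.

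Matrix and protease genes had 0 of 21 tested genes called in either direction, with a median of -0.10, where 3.54% of all tested genes were called. With no filter, with 10 reads in 3 of the 6 libraries or without animal 2, 1 member was called lower. Of its untested members, HAS1, described with the low genes, had 497 reads at 2 h and 6 at 8 h, and MMP1, a collagenase, had 14 and then 59, a pooled ratio of 4.32 (2.39 to 8.39). COL3A1, a chain of type III collagen, had a log2 change of 0.13 ± 0.049 (adjusted p 0.0565), and COL1A1, with its split by matched share, one of -0.48 ± 0.71 (adjusted p 0.604), or 0.11 ± 0.053 with the matched share as a term. Of 18 tested proliferation genes 1 was called higher (5.56%, against 1.97% of all tested genes), and 6 were higher and 7 lower at an adjusted p under 0.05 with no minimum on the fold change. These were 33.3% and 38.9% of the list, against 25.4% and 24.0% of all tested genes. The called gene was MCM3, a subunit of the replicative helicase, with 1.14 ± 0.15 (adjusted p 0.000721), and its log2 change was 0.89 without animal 1, under the limit. Among the 7 were MKI67, a marker of cycling cells, at -0.50 ± 0.11 and CCNB1, a mitotic cyclin, at -0.48 ± 0.092 (adjusted p 0.00787 and 0.00418).

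The label of the cells was checked against markers. All 12 fibroblast markers were tested and 0 were called, with summed levels of 77000 to 111000 CPM at 2 h and 80600 to 114000 CPM at 8 h. Of 9 macrophage markers 1 was tested, LAPTM5, TYROBP had 0 reads in all 9 libraries, and the sum was 7.11 to 21.6 CPM at 2 h and 6.32 to 20.1 CPM at 8 h. The keratinocyte markers KRT1, KRT14 and EPCAM had 0 reads and the whole list of 8 summed to 1.21 to 2.04 CPM over both times. Endothelial markers summed to 1.87 to 2.18 CPM at 2 h and 2.73 to 3.39 CPM at 8 h, with VWF the only member tested (0.49 ± 0.15, adjusted p 0.0284) and CLDN5 at 0 reads, and their part in the rise of VCAM1 was not tested. Melanocyte markers summed to 2.66 to 4.02 CPM over both times. Smooth muscle markers summed to 671 to 1000 CPM, and 1 of 6, LMOD1, was called lower at -1.03 ± 0.13 (adjusted p 0.00067), which missed the limit under 4 alternatives, from -0.99 to -0.93, among them leaving out animal 1 or animal 3. Over all tested genes 1.58% were called lower. In bulk libraries a change in the level per cell and a change in the share of a cell type cannot be told apart.

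**Figure D4:**
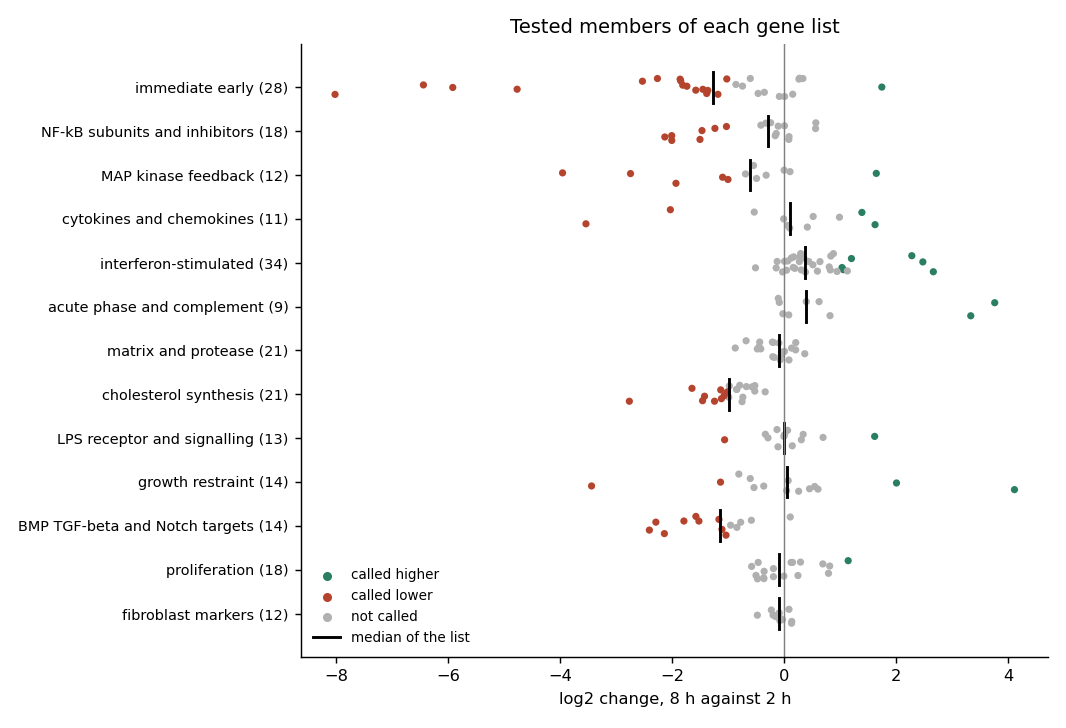
Log2 change at 8 h against 2 h (horizontal) of the tested members of each gene list, one point per gene, with the number tested in brackets and a black line at each list's median. Points are coloured where the gene was called higher or lower. All 21 cholesterol synthesis genes and 13 of the 14 BMP, TGF-β and Notch targets lie below 0, and 30 of the 34 interferon-stimulated genes lie above it.

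The return of early genes was also read on libraries that share none with the 5-month comparison. In the 16-month cultures of the same animals 281 of 12993 genes (2.16%) were called at 2 h against 0 h by a paired edgeR likelihood-ratio test, 208 higher and 73 lower. Of the 208, 181 were tested in 5-month cultures, where 96 (53.0%) were called lower at 8 h against 2 h and 7 higher, against 1.58% and 1.97% of all tested genes. Of the 73, 68 were tested, and 50 (73.5%) were called higher and 0 lower. The median log2 changes were -1.05 and 1.34. One library among those that chose the genes, animal 3 at 2 h, stood apart, with an SD of log2 deviations of 1.38 against 0.266 to 0.429 in the other 17 libraries. The number of genes called the opposite way was 146 in all, of 249 tested, and 214 of 489 when animal 3 was left out of the choice.

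**Figure D5:**
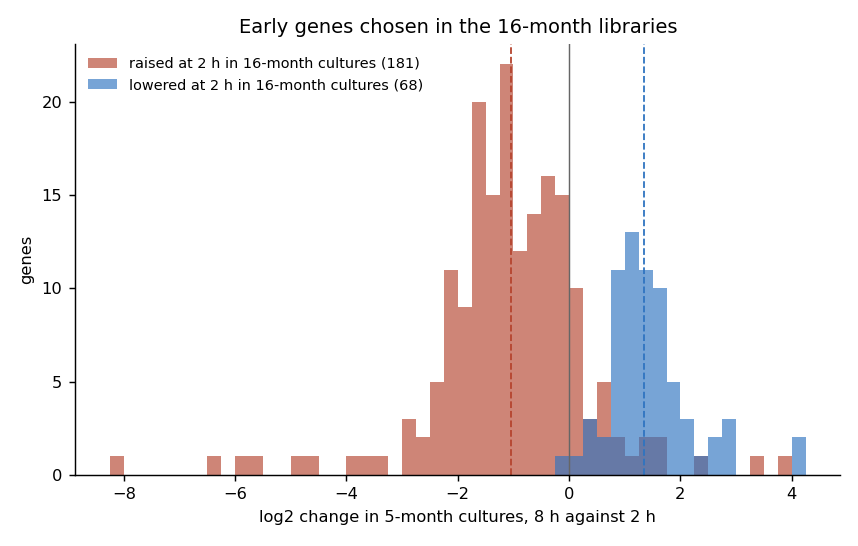
Distribution of the log2 change from 2 h to 8 h in 5-month cultures (horizontal, bins of 0.25) for genes called higher (181) or lower (68) at 2 h in the 16-month libraries, which the 5-month comparison does not use; dashed lines are the medians, -1.05 and 1.34. Most genes raised early in the 16-month libraries lie left of 0, and 67 of the 68 lowered ones lie right of it.

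A test of whether the change from 2 h to 8 h itself differed between the ages called 0 of 12911 genes (0%) by edgeR's quasi-likelihood test. Before adjustment, 259 genes had a p under 0.05. By the likelihood-ratio test 7 genes were called, by DESeq2 19 and by limma-voom 0. The spread among the 12 libraries was too wide for the count of 0 to bear on whether the ages differed. The biological coefficient of variation was 0.308 in these 12 libraries and 0.0925 in the 11 without the library that stood apart, against 0.0903 in the 9 libraries of 5 months. With 11 libraries the quasi-likelihood test called 1 of 12843 genes. Of the 456 genes called in 5-month cultures, 431 were tested with that library left out, 426 had the same sign of change in 16-month cultures and 348 were also called with that sign, where 5.49% of all tested genes were called. In these 11 libraries animal 3 at 16 months had only its 8 h sample. All 16-month changes from them, also within differences between the ages, therefore rested on animals 1 and 2. TFAP4, a transcription factor named after its values were seen, was called with the opposite sign, at -1.05 ± 0.25 in 5-month and 1.07 ± 0.29 in 16-month cultures (adjusted p 0.024 in the latter). The difference itself, 2.14 ± 0.39, was not called (adjusted p 0.129 with the 11 libraries).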

How the data were processed

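RNA-Seq libraries were made from polyadenylated RNA of dermal fibroblast cultures of 3 heifers, taken at 5 and 16 months of age and exposed to LPS for 0, 2 or 8 h, 18 libraries in all. The authors aligned single-end reads and counted them with NextGENe 2.3.4 on the UMD 3.1 assembly, and the deposited values used here are read counts per window, 1 file per library. Of 59846 windows 27550 carry a gene symbol, and 3905 of these (14.2%) share bases with another gene window. Windows run from a gene's start to its end, introns included, counts came to 1.54 to 1.67 per matched read in the 5-month libraries, and whether counting used strand is not given in the sources used here. All sample files were mapped by the labels, and 0 columns were left without a sample.

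Counts were tested with edgeR 4.0.16 (R 4.3.3, limma 3.58.1) by its quasi-likelihood test after TMM scaling, with animal and time as terms over the 9 libraries of 5 months. Genes needed 1 CPM in at least 3 of the 6 libraries at 2 h and 8 h. An adjusted p under 0.05 and a log2 change of at least 1 made a call. The age difference was fitted over 12 libraries with culture as a block. The scripts were tested on simulated data. Pairing followed the animal number of each library. Deviations from the group means correlated between 2 h and 8 h at 0.457, 0.722 and 0.541 within animals 1, 2 and 3. The highest correlations of their 2 h libraries with the 8 h library of another animal were 0.221, -0.498 and 0.389. Genes with fewer reads were compared as pooled CPM with exact 95% intervals, which cover counting error only, and no ratio was formed where both times had 3 reads or fewer. The 6 libraries compared held 51495294 to 128698264 counts in gene windows.

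Genes named were the 12 largest rises and 12 largest falls among those called with the same sign in 3 animals and a mean above 1 CPM over the 6 libraries, up to 4 called members of each gene list, and 6 genes that the study measured by PCR; others are said to have been named after their values were seen, or stand as examples of a list. The comparison, the gene lists and the tests were chosen with earlier results of these data known. Alternatives were other scalings, filters and tests (DESeq2 1.42.0 and limma-voom among them), no pairing, other sets of libraries and each animal left out. The matched share as a term, and leaving out the 16-month library of animal 3 at 2 h, were added after seeing the data. Values of some single genes are not reported here.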

Additional observations from a re-analysis of the deposited data

Results flagged for a closer look

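ACAN, which encodes the cartilage proteoglycan aggrecan (chromosome 21, 20800158 to 20868837), was the 1 gene whose change from 2 h to 8 h was called different between the ages by edgeR's quasi-likelihood test with 11 libraries, without the 16-month library of animal 3 at 2 h. Its log2 change was 1.41 in 5-month cultures and -0.15 in 16-month cultures, a difference of -1.564 ± 0.10 (16 months minus 5 months, adjusted p 0.0271). The 16-month change rested on animals 1 and 2. In 5-month cultures ACAN was at 1.13, 0.153 and 1.36 CPM at 2 h, with a mean of 0.880 CPM. At 8 h it was at 3.05, 0.398 and 3.92 CPM, with a mean of 2.46 CPM. Animal 2 stayed under 1 CPM, and its 8 h level was below the 2 h levels of the others. With 1 CPM required in every library ACAN was not tested. Its difference with all 12 libraries was -1.214 ± 0.327 by the same test, not called (adjusted p 0.707). With all 12 libraries the quasi-likelihood test called 0 genes, the likelihood-ratio test 7 and DESeq2 19.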

How the results depend on the processing

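The count of 456 genes called between 8 h and 2 h became 721 with no filter on low counts, 702 with 10 reads in 3 of the 6 libraries, 292 with 1 CPM in every library, a filter that tested 290 of the 456, and 6369 with no minimum fold change. It stayed between 337 and 486 under the other scalings, tests, library sets and terms. Without 1 animal it ran from 401 to 590, and 359, 415 and 369 of the 456 were called without animals 1, 2 and 3. The split was 127 higher and 165 lower with 1 CPM in every library and 311 and 175 with scaling by library size only. Without the replicate block, that is without pairing by animal, 393 were called, 389 of them among the 456, and the counts at 2 h and 8 h against 0 h were 306 and 146. Calls at 2 h against 0 h ran from 274 to 426 without 1 animal and came to 3193 with no minimum fold change. Calls at 8 h against 0 h ran from 173 to 253 without 1 animal and were 392 with no filter, 377 with 10 reads, 125 with all 18 libraries in one fit and 5416 with no minimum fold change.

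The age difference gave 7 genes by the likelihood-ratio test, 19 by DESeq2, 1 with 11 libraries, and 0 with each animal left out or without the block. Genes chosen in 16-month cultures and called the opposite way in 5-month cultures numbered 146 of 249. Without 1 animal the count ran from 50 to 196: 50 of 78 without animal 1, 66 of 97 without animal 2 and 196 of 492 without animal 3. Without pairing in the 5-month fit it was 136.

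For 50 named genes 872 alternative values were computed. Of these, 846 kept their direction and their call, 26 in 11 genes kept the direction and lost the call, and 0 reversed. The causes of the lost calls were not tested. Genes at a few reads are limited by depth, and SAA3 at 2 h rests on 1 read.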

Other observations

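Zinc finger genes, taken as tested genes whose symbol is ZNF, ZFP, ZSCAN, ZKSCAN or ZBTB and a number, and looked at after the values were seen, were frequent among the recoveries. Of 306 such genes 51 (16.7%) were called higher at 8 h against 2 h and 3 lower, compared with 202 of 12569 other genes (1.61%) called higher. Their median log2 change was -0.35 at 2 h against 0 h, 0.45 at 8 h against 2 h and 0.11 at 8 h against 0 h, and 80.1% of them were above 0 between 2 h and 8 h, compared with 48.0% of other genes. Some passed the filter only through their 8 h libraries, and with 1 CPM required in every library 25 of 261 (9.58%) were called higher and 3 lower, compared with 102 of 11797 other genes (0.865%) called higher. They made up 35 of the 86 recovered early falls and 15 of the 158 late rises. Many of these genes have near-identical paralogs whose reads the counting could share among them, and no test was made of the group.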
